A study of Thermothelomyces thermophilus with 49 samples.

Results

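The first 0.5 h after the parental strain MJK20.3 of *Thermothelomyces thermophilus*, a thermophilic filamentous fungus, was moved from glucose to cellulose is described here. The members were the libraries of the raw count table that the labels assign to MJK20.3 at t1, which is 0.5 h after the cellulose spike, and to MJK20.3 at steady state (SS), with 2 libraries in each group and 4 of 48 in all. MJK20.3 carries the *Δku80* deletion, which removes a component of non-homologous end joining, and every strain of the series carries it, so that no group is wild type. At SS the 2 bioreactor cultures grew in a glucose-limited chemostat. For the spike, part of the broth was replaced by medium without glucose that held microcrystalline cellulose, and the cultures were then run as batches without glucose feed. The removal of glucose and the arrival of cellulose therefore cannot be told apart. The t1 and SS libraries of 1 number come from the same bioreactor. RNA with poly(A) tails was taken from whole filtered mycelium, so that fewer cells of a type and less RNA per cell cannot be told apart in any value below. The other groups used are the exponential glucose batch (ex) and the sample at 1 h (t2) of the same strain, and SS and t1 of BS7.8 (*Δku80*, *Δclr1*), BS6.4 (*Δku80*, *Δclr2*) and JK2.8 (*Δku80*, *Δclr4*), each with 2 cultures of a single strain.

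Cellulose is broken down outside the hypha by secreted enzymes. Endoglucanases cut within the chain, cellobiohydrolases release cellobiose from its ends, lytic polysaccharide monooxygenases (LPMOs) cleave it by oxidation, and ß-glucosidases turn cellobiose into glucose. In ascomycetes these genes are largely silent on glucose, and zinc cluster activators such as Clr1, Clr2 and Xyr1 (Xlr1) are needed for their transcription, while the repressor Cre1 (CreA) acts against them on preferred sugars. Sugars enter through membrane transporters, and the enzymes leave through the endoplasmic reticulum (ER), where chaperones and protein disulfide isomerases fold them.

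The libraries held 4950231 and 3922456 counts on genes at SS and 3440862 and 3503006 at t1, toward the lower end of the 2567179 to 22212257 of the series, so the genes with few counts are measured poorly. The 10 genes with the most counts held 6.10% and 6.48% of a library at SS and 8.25% and 8.19% at t1. The 2 cultures differed more at t1 than at SS. Over 6445 genes with mean counts of 50 or more, culture 2 was at least 2-fold above culture 1 for 129 genes at t1 and for 7 at SS, and the median absolute log2 ratio of the cultures was 0.268 against 0.175. Levels below are CPM, read counts put on a common scale per library by TMM, given for culture 1 and then culture 2, and they are not corrected for gene length. Of the genes used as constant references in this field, the actin-like gene MYCTH_2316610 was at 295.8 and 274 CPM at SS and 271 and 319 at t1, and the tubulin gene MYCTH_2294321 was lower by 0.44 on the log2 scale (483 and 468 against 326 and 373 CPM; adjusted p = 0.0063, lost without t1 culture 1, where the value was -0.35). The genes deleted in the other strains, *clr1*, *clr2* and *clr4*, were counted in all 4 libraries.

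Within 0.5 h a large part of the transcriptome moved. Of 8565 genes tested, 2869 (33.5%) passed an adjusted p of 0.05, with 1325 higher (15.5%) and 1544 lower (18%), where the test was edgeR's quasi-likelihood test with Benjamini-Hochberg adjustment over all tested genes. A gene that passed is called higher or lower at t1. At a change of at least 2-fold, 593 genes (6.92%) were higher and 719 (8.39%) lower, and at 4-fold 252 (2.94%) and 235 (2.74%). The median log2 fold change of all tested genes was -0.02, and the CPM of the 2 groups did not overlap for 63.2% of genes. These figures are the background against which each gene group below is read.

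The shift was visible in how the libraries were spent. Genes for cellulases held 0.214% and 0.172% of all counts at SS and 2.55% and 4.18% at t1. Hemicellulases went from 0.193% and 0.202% to 0.935% and 1.28%. The small class of esterases moved from 0.00727% and 0.0053% to 0.173% and 0.24%. Pectinases took 0.0106% and 0.01% at SS and 0.0389% and 0.149% at t1, a share that differed almost 4-fold between the t1 cultures. Genes of starch metabolism fell from 0.318% and 0.341% to 0.163% and 0.148%, and those of cell wall remodelling from 1.27% and 1.23% to 0.856% and 0.814%. In every one of these classes both t1 libraries lay on the same side of both SS libraries. The remaining CAZY classes overlapped. Glycosyltransferases held 0.932% and 1.06% at SS and 1.18% and 1.03% at t1. CAZY genes listed as other held 2.37% and 2.59% at SS and 2.03% and 2.47% at t1. Of all tested genes, 63.2% had CPM that did not overlap between the groups. In the t1 libraries the shares of the 4 lignocellulose classes together were 3.7% and 5.85%, against 0.425% and 0.389% at SS. With 2 libraries per group an exact permutation test of a single share cannot reach 0.05, so these shares are given without a test.

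**Figure D1:**
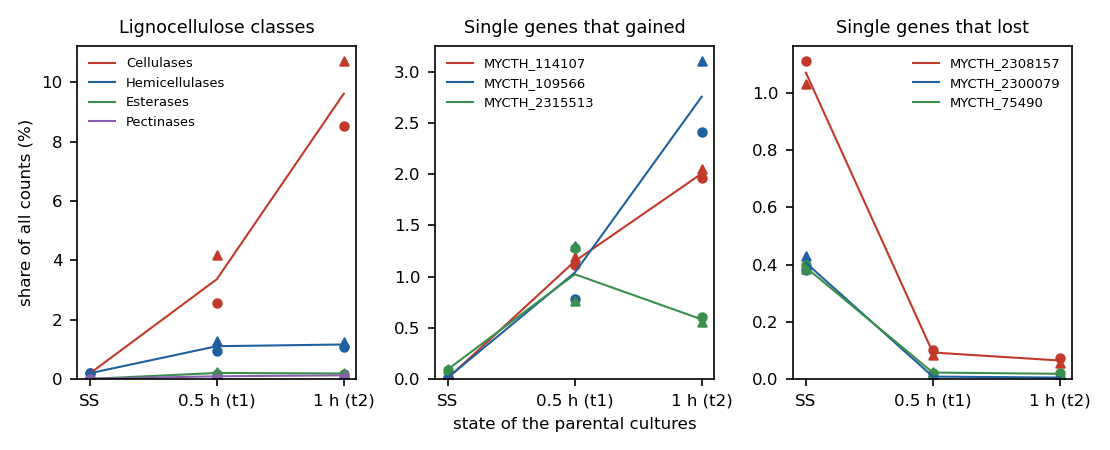
Share of all counts of a library, in percent, held by gene classes at SS, 0.5 h (t1) and 1 h (t2) in the parental strain. Circles are culture 1, triangles culture 2 and lines the mean; cellulases lie at 0.172% to 0.214% at SS and at 2.55% to 4.18% at t1.

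Of 49 genes listed as cellulases, 46 were tested, 1 was not and 2 are absent from the table used here, and 30 of the 46 were higher at t1 and 1 was lower, with a median log2 fold change of 4.02. The cellobiohydrolases led this group. MYCTH_109566 (GH7 with a cellulose-binding module, CBM1; chromosome 1, 9753507 to 9755507, build ASM22609v1) was at 136.5 and 170.5 CPM at SS and 8017 and 12644 at t1. This is a 67.3-fold rise of the mean, with a log2 fold change of 6.07 ± 0.40 (SE; adjusted p = 8.1e-14), and the gene alone held 0.778% and 1.3% of the t1 libraries. MYCTH_66729 (GH6, CBM1) went from 16.3 and 23.7 to 2696 and 3658 CPM (7.32 ± 0.39, adjusted p = 3.8e-16), and the GH6 gene MYCTH_2303045 from 7.66 and 6.71 to 2785 and 4346 CPM (8.95). The GH7 gene MYCTH_97137 stood at 7.66 and 10.5 CPM at SS and at 147 and 1085 at t1, so that its rise of 6.09 on the log2 scale was carried mainly by culture 2. MYCTH_42937, the cellobiohydrolase that was not called, was at 5.11 and 5.99 CPM at SS and 6.89 and 13.6 at t1. In all, 5 of 6 cellobiohydrolases tested were higher.

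Of the endoglucanases, 7 of 9 were higher, with a median of 3.47. MYCTH_86753 (GH5, CBM1) was measured at 30.4 and 28.03 CPM at SS and 1706 and 2131 at t1 (6.03 ± 0.28, adjusted p = 2.4e-17). MYCTH_76901 (GH45) rose from 11.4 and 6.95 to 587 and 846 CPM. The GH7 endoglucanase MYCTH_111372 had 3 counts over both SS libraries and 656 over both t1 libraries, a ratio of 293 with a 95% exact (Clopper-Pearson) counting interval of 99.7 to 1420, where the interval covers counting error alone. The GH7 and GH12 endoglucanases MYCTH_116157 and MYCTH_109444, at 19.4 to 35.2 CPM at SS, rose by smaller steps (2.50 and 3.47 on the log2 scale). The GH5 gene MYCTH_43356 was not called (-0.10).

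Among the LPMOs of family AA9, 14 of 22 were higher, none was lower and the median was 4.02. MYCTH_110651 (AA9, CBM1; chromosome 1, 5810866 to 5812738) had 3 counts over the SS libraries and 5309 over the t1 libraries, a ratio of 2370 (counting interval 810 to 11500). MYCTH_46583 rose from 8.25 and 9.82 CPM to 912 and 1874, and MYCTH_80312 from 1.57 and 0.958 to 288 and 502. The LPMO MYCTH_112089 was again uneven between cultures, at 0.786 and 2.40 CPM at SS and 186 and 755 at t1 (8.26 ± 0.88). The 8 LPMOs that did not pass included MYCTH_2054500, chosen after its values were seen, with 18.9 and 16.97 CPM at SS and 14.4 and 14.2 at t1. A rise was thus not detected in every gene of the family at this time. A gene that did not pass is not shown to be unchanged.

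The ß-glucosidases split in direction. MYCTH_115968 (GH1) rose from 117 and 89.6 CPM to 4939 and 5806 (5.70 ± 0.29, adjusted p = 2e-16). MYCTH_62925 (GH3) went from 2.55 and 1.44 to 1129 and 1751 CPM, and MYCTH_58882 (GH3; chromosome 6, 51326 to 53769) from 1 count over the SS libraries to 1345 counts over the t1 libraries, a ratio of 1800 (counting interval 322 to 71100). MYCTH_66804 (GH3) was also higher by 5.04 on the log2 scale. The GH3 ß-glucosidase MYCTH_80304 fell, from 1375 and 951 CPM to 113 and 140 (-3.20 ± 0.26, adjusted p = 1e-11). It was the only cellulase called lower. In total 4 of 9 ß-glucosidases were higher, 1 lower and 4 not called.

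**Figure D2:**
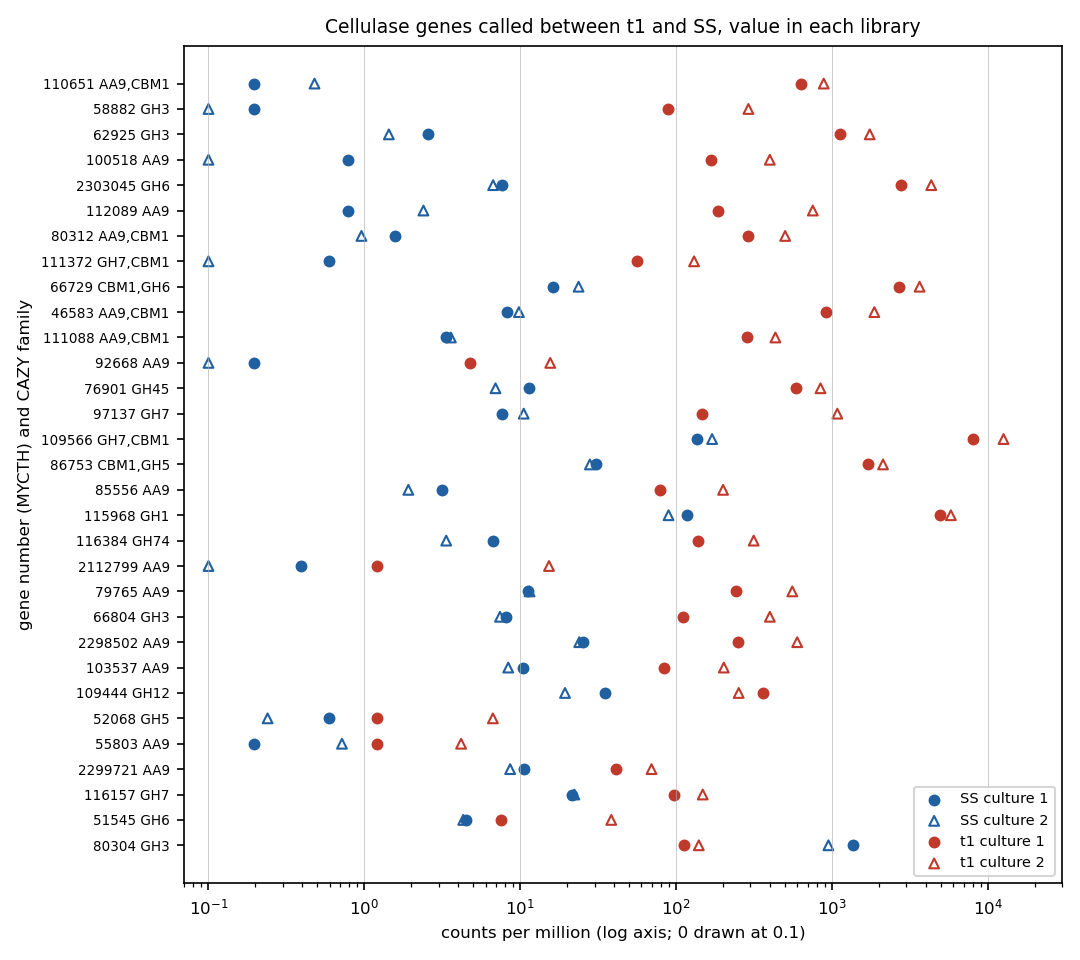
Levels (CPM, log axis) of the 31 cellulase genes called at t1 against SS in each of the 4 libraries, with filled circles for culture 1, open triangles for culture 2 and values of 0 drawn at 0.1. All but the ß-glucosidase MYCTH_80304 (1375 and 951 CPM at SS, 113 and 140 at t1) lie to the right at t1, and the t1 pair is spread more widely than the SS pair for several genes, MYCTH_97137 (147 and 1085) among them.

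Genes whose products carry the cellulose-binding module CBM1 were nearly all higher. Of 16 such genes in all CAZY classes (CAZYs are carbohydrate-active enzymes), 15 were higher and none was lower, with a median log2 fold change of 7.72. Among cellulases, the 8 with CBM1 were all higher, by fitted values of 6.03 to 11.13 on the log2 scale, while of the 38 without it 22 were higher and 1 lower, with a median of 2.56. The difference between cellulases with and without the module was not tested.

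Hemicellulase and pectinase genes were also higher in the cultures on microcrystalline cellulose. Of 62 hemicellulases tested, 30 were higher and 5 lower (median 0.99, or 0.93 with genes without counts in a group at their bound). Xylanases cut the xylan backbone, and 6 of 9 tested rose, with a median of 3.57. The xylanase MYCTH_112050 (GH10, CBM1) stood at 11.001 and 11.02 CPM at SS and at 2920 and 3707 at t1 (8.23 ± 0.29), and its adjusted p of 2.8e-20 was the smallest among the genes named here. The xylanase MYCTH_89603 (GH11) went from 34.97 and 32.3 to 2044 and 2496 CPM. MYCTH_100068 (GH11, CBM1) had 1 count over the SS libraries and 1764 over the t1 libraries, a ratio of 2360 (counting interval 423 to 93300). Side-chain enzymes rose too, with 7 of 11 exoarabinases and arabinofuranosidases higher, for example MYCTH_98003 (GH62, CBM1) from 0.982 and 1.44 to 55.7 and 111 CPM. The mannanase MYCTH_84297 (GH5) rose from 5.89 and 13.2 to 509 and 807 CPM, and the ß-galactosidase MYCTH_40111 (GH2) from 14.3 and 7.67 to 357 and 764. The xylosidase MYCTH_39555 (GH43) rose from 18.5 and 17.7 to 272 and 221 CPM, and 3 of 4 xylosidases were higher, as were 5 of 7 galactosidases. The galactanase gene *ganA* (MYCTH_43163; GH53) went from 13.9 and 11.98 to 107 and 221 CPM. Mannosidases were mixed, with 3 higher, 3 lower and a median of -0.03 over 11 genes. The 5 hemicellulases that were lower fell by little, from -0.65 to -1.20 on the log2 scale, and the ß-galactosidase MYCTH_2307767 fell most, a call that was lost without SS culture 1 (-1.02) or either t1 culture (-1.14 and -1.27).

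All 8 pectin lyases tested were higher, and 9 of 11 pectinases in all (median 3.5), although the call of the pectin lyase MYCTH_52463 was lost without t1 culture 2 (2.42). The rise was measured in both cultures but was steeper in culture 2, which lay above culture 1 at t1 for 11 of 11 pectinases with a median log2 ratio of 1.58. The pectin lyase MYCTH_102322 (PL3) was at 0.982 and 0.958 CPM at SS and at 72.5 and 529 at t1 (8.26 ± 0.82, adjusted p = 8.2e-09). The polygalacturonase MYCTH_55717 (GH28) went from 1.38 and 1.20 to 21.3 and 110 CPM, and MYCTH_71204 (PL1) from 30.6 and 23.7 to 139 and 417 CPM. The weakest riser of the class, MYCTH_97932 (PL1), moved from 17.7 and 13.2 to 23.7 and 61.8 CPM (1.47, adjusted p = 0.0021, lost without t1 culture 2 at 0.61), and the GH78 gene MYCTH_2299923 was at 21.02 and 28.03 CPM at SS and 24.6 and 28.1 at t1. For the first 3 of them the t1 cultures lay apart by 3-fold or more, and both lay far above SS.

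Esterases remove side groups from hemicellulose and pectin. The acetylxylan esterase MYCTH_2066457 (CE5, CBM1; chromosome 5, 4315333 to 4316502) had no count in either SS library and was at 991 and 1325 CPM at t1. With the floor of 3 counts over the SS group, 0.324 CPM, it was at least 3580-fold higher (adjusted p = 1.6e-11). MYCTH_84133 (CE16) rose from 2.36 and 3.59 to 303 and 560 CPM. Of 14 esterases tested, with a median of 2.40 (2.13 with genes without counts at their bound), 6 were higher and 1 lower, which was MYCTH_105128 (CE3) at 20.04 and 18.4 CPM at SS and 7.19 and 5.57 at t1, a call that did not hold without any 1 of the 4 libraries (-1.42 to -1.79). The count of 6 rested on single libraries and was 3 without SS culture 1, without SS culture 2 or without t1 culture 2.

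**Figure D3:**
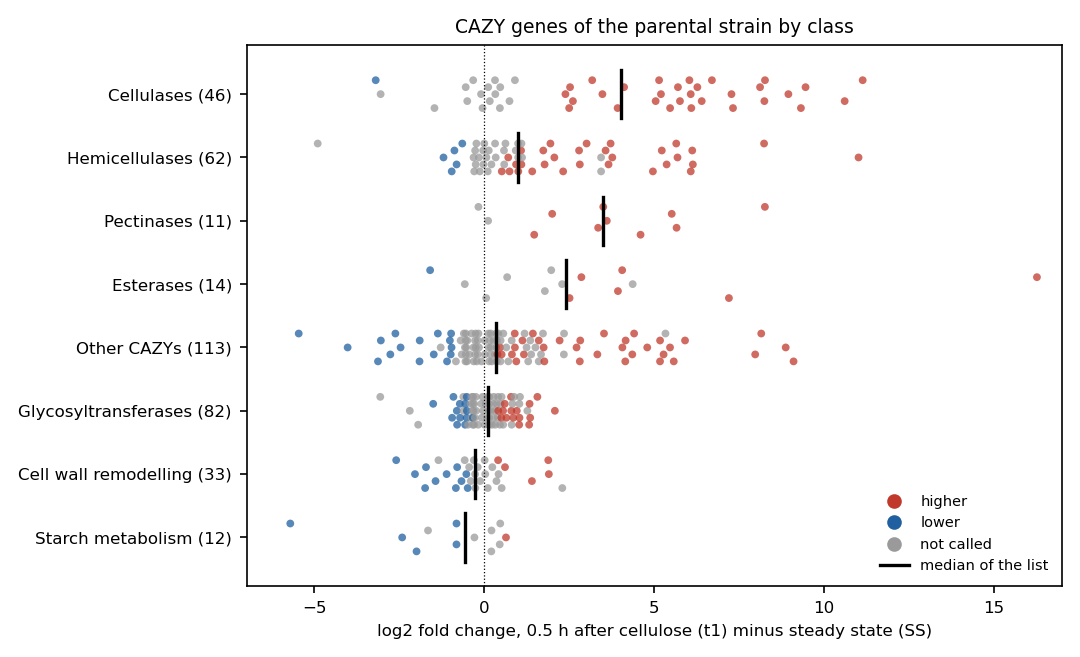
Log2 fold change of t1 against SS for every tested gene of each CAZY class, coloured by call, with a black bar at the class median. The medians are 4.02 for cellulases, 3.5 for pectinases, 2.40 for esterases and 0.99 for hemicellulases, and -0.56 for starch metabolism and -0.27 for cell wall remodelling.

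Outside these classes, cellobiose dehydrogenases, which oxidise cellobiose and can pass electrons to LPMOs, were among the sharpest responders. The gene *cbdA* (MYCTH_111388; AA8, AA3, CBM1) stood at 8.64 and 10.1 CPM at SS and 3692 and 5033 at t1 (8.87, adjusted p = 5.2e-15). MYCTH_81925 rose from 10.0 and 11.7 to 2252 and 3909 CPM, while the third gene, MYCTH_58125, moved from 2.55 and 1.68 to 5.69 and 8.91 CPM (1.77, not called without culture 2 at SS or at t1, with 1.51 and 1.40). MYCTH_33936, annotated by its CBM1 alone, went from 0.589 and 0.24 to 148.6 and 340.1 CPM. Several accessory families joined them. MYCTH_112399 (GH131, CBM1) rose from 5.89 and 6.47 to 223 and 517 CPM, MYCTH_2308362 (GH115, a family of glucuronidases) from 9.04 and 5.03 to 196 and 487, and the glucuronoyl methylesterase MYCTH_55568 (CE15) from 0.982 and 0.24 to 8.39 and 38.7. Over all CAZY genes 132 of 373 tested were higher and 52 lower, with a median of 0.39 (0.36 with genes without counts at their bound). Glycosyltransferases, which build rather than cut polymers, showed no such lean, with 16 of 82 higher and 13 lower (median 0.11). The glycosyltransferase MYCTH_2309354 (GT24) rose most clearly among them, from 76.4 and 80.7 to 391 and 271 CPM, and MYCTH_2295490 (GT20) fell from 84.5 and 89.1 to 27.9 and 33.1.

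Outside the lignocellulose classes, 3 CAZY genes were among the 10 lowest log2 fold changes of the transcriptome at a mean count of 50 or more. The glucoamylase gene *gla1* (MYCTH_72393; GH15, CBM20; chromosome 7, 1578424 to 1580831) fell from 697 and 757 CPM to 13.8 and 13.9, a 52.5-fold drop of the mean (-5.71 ± 0.41, adjusted p = 6.2e-12). MYCTH_2300079 (GH31) dropped from 3716 and 4037 to 84.8 and 90.8 CPM (-5.46 ± 0.23, adjusted p = 1.9e-18), and the trehalase MYCTH_75490 (GH37), of a family that splits the storage sugar trehalose, from 3857 and 3602 to 230 and 229 (-4.02). Both cultures gave nearly the same t1 level for each of these 3 genes. Neither loss held for the whole family, since the GH31 gene MYCTH_2301053 rose by 1.74 on the log2 scale and the trehalase MYCTH_2302517 by 0.39, a small rise that was not called without any 1 of the 4 libraries (0.34 to 0.43), both genes being named after their values were seen. Of 12 genes of starch metabolism 5 were lower and 1 higher (median -0.56), and the debranching enzyme MYCTH_2303065 fell from 173 and 175 to 35.1 and 30.1 CPM.

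Cell wall remodelling genes leaned the same way, with 11 of 33 lower and 5 higher. The crosslinking transglycosidase MYCTH_2315557 (GH16) went from 3688 and 3505 CPM to 1325 and 823, and the glucan transglucosylase MYCTH_60294 (GH72) from 1535 and 1315 to 394 and 472. The exo-ß-1,3-glucanase MYCTH_102522 (GH55) fell by 2.60 on the log2 scale. Against this lean the chitosanase MYCTH_109821 (GH75) rose from 963 and 763 to 3307 and 3051 CPM (1.88 ± 0.25, adjusted p = 2.9e-07). The chitinase MYCTH_113450 (GH18, CBM50) was at 46.8 and 22.8 CPM at SS and at 273 and 71.3 at t1, and it did not pass (2.29, adjusted p = 0.083), although it did with the block for the culture (2.16) and with DESeq2 (2.38).

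The largest single gain of CPM in the transcriptome was that of a predicted sugar transporter. MYCTH_114107 (carbohydrate transport; chromosome 1, 3301692 to 3303898) stood at 98.6 and 90.5 CPM at SS and at 11495 and 11564 at t1, a 122-fold rise of the mean (6.93 ± 0.45, adjusted p = 6.6e-14). It alone held 1.11% and 1.19% of the t1 libraries, in equal measure in both cultures. MYCTH_84164 followed it, from 109 and 85.0 to 3649 and 4721 CPM (5.43), and MYCTH_104673 from 2.16 and 3.59 to 98.6 and 243 CPM (5.92). Of the 6 listed members of the GO term carbohydrate transport, which has 13, 5 were higher, the smallest change being that of MYCTH_38796, from 76.4 and 98.2 to 112.1 and 174 CPM (0.72, not called without SS culture 1 or t1 culture 2, with 0.54 and 0.36), and MYCTH_43941 was not called (0.74). The study listed these 6 because they changed in strains of this series, the parental strain included, and such a choice gives their direction no independent weight. The largest loss of CPM was again a transporter, MYCTH_2308157 (substrate-specific transmembrane transporter activity; chromosome 5, 1089259 to 1091445). It held 10807 and 9682 CPM at SS and 1040 and 826 at t1, an 11-fold drop (-3.46 ± 0.32, adjusted p = 4.3e-10), while its mean in the exponential glucose batch was 14.01 CPM. Of ex, SS and t1 it was thus highest at SS.

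Of 47 orthologs of regulators of carbohydrate use, 8 were higher at t1, 4 lower and 35 not called, with a median of 0.09. Over all tested genes 15.5% were higher and 18% lower. The share of higher orthologs was thus close to that of all genes, and the share of lower ones was below it. The change was largest in *clr2*. MYCTH_38704 (*clr2*; chromosome 1, 8537416 to 8539985) went from 8.64 and 14.9 CPM to 298 and 494 (5.09 ± 0.38, adjusted p = 1.2e-10). The ortholog of *xyr1*, the activator of xylanase genes (MYCTH_2310145), rose from 66.003 and 80.2 to 612 and 653 CPM (3.11 ± 0.33). In contrast *clr1* (MYCTH_2298863) was at 300.2 and 372 CPM at SS and 267 and 330 at t1 (-0.17 ± 0.22, adjusted p = 0.60), and *clr4* (MYCTH_2296492) at 175 and 208 against 202 and 214 (0.12 ± 0.14, adjusted p = 0.56). For both genes the t1 values overlapped the SS values.

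The ortholog of *hacA*, the activator of the unfolded protein response (MYCTH_2310995), stood at 555 and 490 CPM at SS and at 3283 and 3026 at t1 (2.59 ± 0.18, adjusted p = 1.5e-13). The pair that controls galacturonic acid use in *Aspergillus* rose together in direction, with the activator ortholog *gaaR* (MYCTH_46266) at 121 and 124 CPM at SS and 341 and 381 at t1 and the repressor ortholog *gaaX* (MYCTH_46981) at 32.4 and 44.8 against 81.2 and 160. The ortholog of the repressor gene *cre1* (MYCTH_2310085) rose slightly, from 312 and 353 to 510 and 391.6 CPM (0.44 ± 0.16, adjusted p = 0.034), and this call was lost without SS culture 1, SS culture 2 or t1 culture 1 (0.35, 0.53 and 0.24). Downward, the ortholog of *amyR*, in *Aspergillus* the activator of amylase genes (MYCTH_2301920), fell from 682 and 839 to 226 and 187 CPM (-1.88 ± 0.14, adjusted p = 3.3e-12). The GATA factor ortholog *areB* (MYCTH_2309867) fell from 71.1 and 84.8 to 38.7 and 32.9 CPM. The others called were *clrC* (1.05), *xpp1* (0.58), *clbR* (-0.81) and *hep1* (-1.71).

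**Figure D4:**
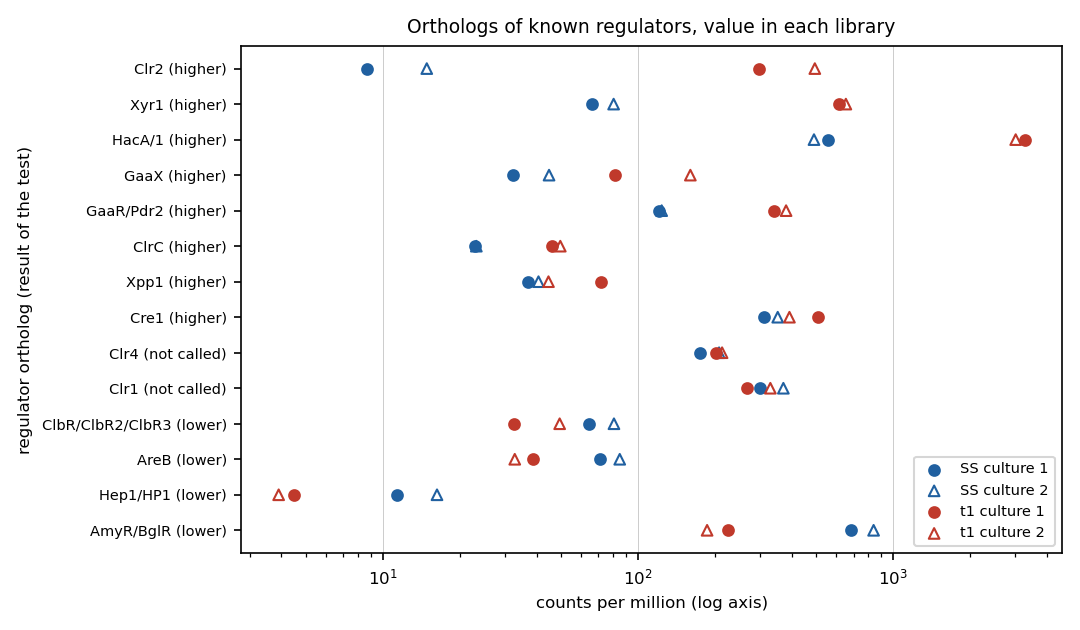
Levels (CPM, log axis) of the 12 called regulator orthologs and of *clr1* and *clr4* in each of the 4 libraries, with filled circles for culture 1 and open triangles for culture 2. *clr2* moves from 8.64 and 14.9 to 298 and 494 CPM, whereas the SS and t1 points of *clr1* and *clr4* overlap.

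Over all predicted transcription factors, regulators named above included, 37 of 304 tested were higher and 50 lower, with a median of -0.04. Both shares lay below those of all tested genes, of which 15.5% were higher and 18% lower. The zinc finger gene MYCTH_63778, with a best match to Sp3, rose from 53.6 and 56.5 to 353 and 345 CPM (2.66, adjusted p = 1.1e-15), and the zinc cluster gene MYCTH_2308084 from 10.8 and 8.38 to 107 and 66.01 CPM. MYCTH_2305551, another zinc cluster gene, fell from 1173 and 1148 to 249 and 193 CPM (-2.39). Of the zinc cluster (Zn2Cys6) genes 11 of 97 were higher (11.3%) and 14 lower (14.4%), also below the shares of all tested genes. Of the helix-loop-helix genes, a list picked from many such domain lists, 5 of 13 were higher (38.5%) and none lower.

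Single genes with labels of protein folding or the ER rose sharply, while the 18 listed genes of protein folding did not rise as a set. The ER and isomerase genes come from lists that the study drew from genes higher in the parental strain, which gives their direction no independent weight. The protein folding list was drawn from genes lower in *Δclr1* after the same spike. Its counts thus lean toward lower genes by choice and do not describe folding genes in general. MYCTH_2315513, annotated with ATPase activity and ER-associated degradation, went from 907 and 919 CPM to 13164 and 7468 (3.50 ± 0.24, adjusted p = 1.4e-13) and held 1.28% and 0.765% of the t1 libraries. The protein disulfide isomerase gene MYCTH_2296005 rose from 711 and 739 to 7740 and 5375 CPM, MYCTH_2295433 from 205 and 183 to 1971 and 1577, and MYCTH_2313331 by 2.21 on the log2 scale. MYCTH_2295005 (protein folding) rose from 828 and 848 to 7467 and 4682 CPM. Here the cultures stood in the opposite order to the cellulases, since culture 2 lay below culture 1 at t1 for each of the 3 isomerases listed, out of 4 in the term (median log2 ratio -0.53) and above it for 39 of 46 cellulases (median 0.70). Of the 18 protein folding members listed, out of 49 in the term, 3 were higher and 8 lower, with a median of -0.25.

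Genes of ribosome building fell in the same interval. Of 16 listed members of the small-subunit processome (29 in the term), which processes the precursor of the small ribosomal subunit, all were lower with a median of -2.10. MYCTH_2304281 of that group fell from 127 and 138 CPM to 15.3 and 12.3. Of 15 listed members of the preribosome of the large subunit 14 were lower (median -2.55), and of the term for transcription of ribosomal RNA by RNA polymerase I 5 of 5 listed, out of 6 (median -2.63), with MYCTH_2295109 going from 77.4 and 84.6 to 7.19 and 7.52 CPM. The box C/D complex, which guides methylation of ribosomal RNA, had 4 of 4 listed members lower (-2.37), MYCTH_2311601 from 249 and 269 to 50.3 and 28.4 CPM. In translation the medians were -0.78 for the 43S preinitiation complex (13 of 14 lower) and -0.79 for the large ribosomal subunit (8 of 11 lower). The fall of the latter was larger in culture 2, with a summed level of 7050 and 5560 CPM at SS and 5510 and 2920 at t1.

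Other growth functions fell with them. The MCM complex, which unwinds DNA for replication, had 6 of 6 genes lower (median -0.94), as were 4 of 4 genes of purine nucleobase synthesis (-1.97), 4 of 4 of lysine synthesis (-1.16), 7 of 7 listed genes of protein import into the mitochondrial matrix (-0.81) and 4 of 4 of the mitochondrial pyruvate dehydrogenase complex (-1.05). MYCTH_2080603 of the latter fell from 565 and 586 to 154 and 95.3 CPM. Fatty acid synthesis had 5 of 7 listed genes lower, methionine synthesis 6 of 7, arginine synthesis 4 of 6 and the chaperonin-containing T-complex, which folds actin and tubulin, 5 of 7. For the mitochondrial ribosome, 9 of 15 listed genes of its small subunit (median -0.58) and 7 of 15 of its large subunit (-0.63) were lower. None was higher, and the rest did not pass. In the respiratory chain 4 of 7 genes of complex III (median -0.48) were lower, as were 6 of 11 listed genes of ATP synthesis coupled proton transport (-0.42). Cytochrome c oxidase did not share this fall. Only 1 of its 8 genes was lower (12.5%, median -0.15), against 18% of all tested genes. Of 5 listed autophagy genes 3 were higher, with a median of 0.58. The study compiled these GO groups from genes that changed at all 4 times in a strain of this series, some of them in these same libraries, so the counts describe the groups and are not independent evidence of their direction.

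**Figure D5:**
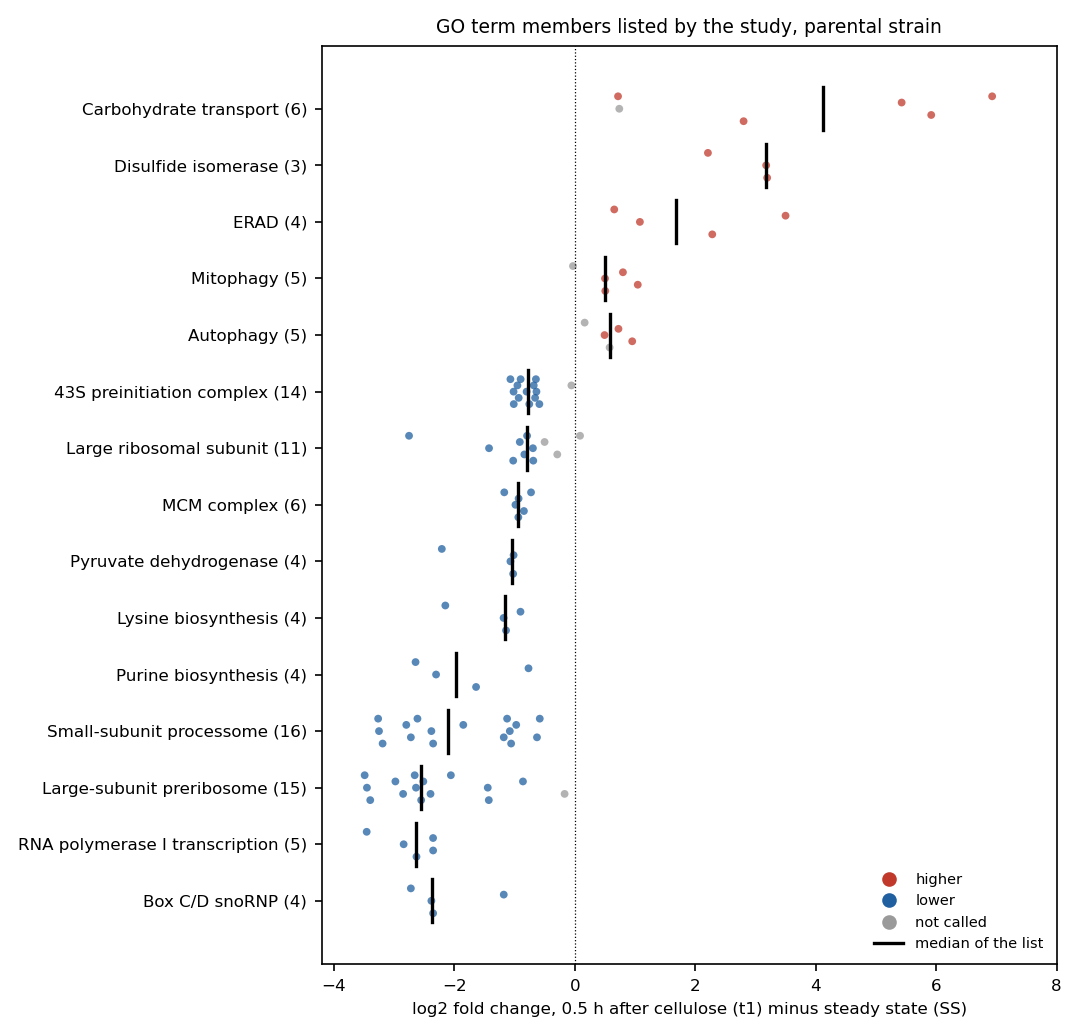
Log2 fold change of t1 against SS for the genes of 15 GO groups, coloured by call, with a black bar at the median. Groups of ribosome building lie near -2 (processome median -2.10, RNA polymerase I transcription -2.63), translation and replication near -0.8, and the listed genes of carbohydrate transport (median 4.11) and the disulfide isomerases (3.18) at the upper end.

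The levels at t1 were set beside those of the exponential glucose batch. Of the 252 genes higher by at least 4-fold, 205 stood at least 4-fold lower in ex than at t1 and 0 at least 4-fold above it. Of the 235 genes lower by at least 4-fold, 169 stood at least 4-fold above the t1 level in ex, and 43 were at least 4-fold lower in ex than at SS, *gla1* (ex mean 2.51 CPM), MYCTH_2300079 (13.0), MYCTH_75490 (10.7) and MYCTH_2308157 among them. Both sets were chosen for a change of at least 4-fold between SS and t1. A gene with an ex level near SS is therefore placed about 4-fold or more from t1 by that choice. In ex, most genes of both sets lay within 4-fold of SS. The counts against t1 and against SS thus have no independent weight, and no share over all genes is given beside them. These are counts of levels and were not tested.

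Some of the genes that moved most lay side by side. Among the 252 genes, 34 pairs were immediate neighbours on the chromosome and involved 63 genes (25%), and among the 235 lower genes 20 pairs involved 39 genes (16.6%). On chromosome 6, the ß-glucosidase MYCTH_58882, the GH31 gene MYCTH_104674 and the transporter MYCTH_104673 fill 51326 to 61291, and beside the rise of the first the other 2 were higher by 5.27 and 5.92 on the log2 scale. On chromosome 5, 472133 to 479304 hold MYCTH_2139925, MYCTH_88807 and the transporter MYCTH_84164, and MYCTH_88807 had no count at SS and 15.3 and 22.8 CPM at t1, at least 58.9-fold higher. On chromosome 4, the pectin lyase MYCTH_52463 lies beside the AA16 gene MYCTH_2306267 (1582920 to 1587048), with 3 and 1 counts at SS and 109 and 218 at t1, a ratio of 48.6 (16.2 to 239) and 292 (51.8 to 11600), and MYCTH_52463 did not pass without t1 culture 2 (2.42). Among the losses, MYCTH_2303065 and MYCTH_50903 adjoin at 2635 to 7793 of chromosome 3 (-2.42 and -4.15). These examples were chosen after their values were seen, and the number of pairs was not compared with chance.

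Many genes also changed over the next 0.5 h, and the directions were not compared with those at t1 over all genes. This contrast shares the t1 libraries with the one above. Against t1, 1424 genes (16.6%) differed at t2, 1 h after the spike, with 706 (8.24%) higher and 718 (8.38%) lower, and 758 without parental t1 culture 1, 794 without t2 culture 2 and 905 without t2 culture 1. Of the 46 cellulases 26 rose further and none fell, with a median log2 difference of 1.51, and the class held 3.36% ± 1.15 (SD, n = 2) of counts at t1 and 9.61% ± 1.54 at t2. Hemicellulases moved little in comparison, with 9 higher and 2 lower (median 0.21). MYCTH_109566 rose by a further 1.57 and *clr2* by 1.18, while MYCTH_114107 was not called between these times (0.94 ± 0.35). The ER gene MYCTH_2315513 was by then lower again, by 0.68 on the log2 scale.

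Whether the deletions altered the response of the first 0.5 h was tested as the difference of the t1 against SS change between strains, with the same parental libraries in each. In *Δclr1* 2343 genes (27.4%; 11.7% higher and 15.7% lower) responded differently from the parental strain, in *Δclr2* 1096 (12.8%; 4.78% higher and 8.02% lower) and in *Δclr4* 7 (0.0817%, all higher, with 0% lower). The *Δclr2* count rested partly on single libraries, with 446 without parental t1 culture 1, 451 without *Δclr2* t1 culture 2, 541 without *Δclr2* SS culture 1 and 682 without parental SS culture 2. The count of 7 was not stable, as 49 genes passed with a block for the culture number (28 higher and 21 lower), and the *Δclr4* and *Δclr1* libraries came from another sequencing centre and RNA treatment than those of the parental strain. Of 46 cellulases 25 had a lower response in *Δclr1* and 1 a higher one (median difference -4.10), and 11 a lower and 3 a higher one in *Δclr2* (-1.05). The ß-glucosidase MYCTH_80304, which fell in the parental strain, was the higher one in *Δclr1* (1.19) and among the 3 in *Δclr2* (1.26). A single cellulase differed in *Δclr4*, where MYCTH_2298502 rose more. Of 11 pectinases 7 had a lower response in *Δclr1* and 4 in *Δclr2*, with none higher. MYCTH_109566 stood at a mean of 122 CPM at SS and 97.0 at t1 in *Δclr1*, and 86.3 and 840 in *Δclr2*. The transporter MYCTH_114107 behaved otherwise, with 122.6 and 17389 CPM in *Δclr2*, where no difference was detected (0.22 ± 0.50, adjusted p = 0.83), and 21.8 and 448 in *Δclr1* (-2.56).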

How the data were processed

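The deposited table holds raw read counts per gene for 9292 genes in 48 libraries. Before deposit the authors ran FastQC, BBTools (trimming of some libraries) and STAR against ASM22609v1 on paired reads, and which program counted reads is not given in the sources used here. Columns of the authors' own normalized values and comparisons (fold changes, p-values) were not used.

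The low-count filter was filterByExpr in edgeR 4.0.16 (limma 3.58.1, R 4.3.3; minimum count 10); 8565 genes stayed and 727 did not. Counts were scaled by TMM and 1 quasi-likelihood model with a coefficient for each of 24 groups described all 48 libraries (24 residual degrees of freedom, common biological coefficient of variation 0.151), so that groups share the estimate of spread. Contrasts were t1 against SS and t2 against t1 in the parental strain, and the difference of the t1 response between each deletion strain and the parental strain, with Benjamini-Hochberg adjustment at 0.05. Intervals and floors of counts (3 counts) cover counting error only.

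CAZY classes, predicted transcription factors, 47 regulator orthologs and GO members are those tabulated in the study. The members and lists were chosen with earlier results of these data known. Product names were not available in the gene table used here, so lists by keyword and a list of spore markers were not made. Genes named were drawn from a wider set, with exceptions stated. That set held the 10 largest changes in each direction, the 5 largest gains and losses of CPM and the extremes of each list. It also held called regulators, genes at 0 at SS and genes that the study names. Of its 433 genes only a part is named, and no rule was fixed for the choice within the set. GO roles come from the study's own tables. Coordinates are from RefSeq, where 9286 genes matched by locus tag and 6 by symbol.

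A bioreactor gave all libraries of its number, according to the sample names and methods. Deviations of such libraries from their group means correlated with a median r of 0.0396 over 15 pairs of parental states (0.012 for SS with t1). Whole-library duplicates were not found, since replicates differed by more than counting noise (chi-square per degree of freedom 8.123 at SS and 24.47 at t1). Alternatives were DESeq2 1.42.0, its size factors, no filter, fewer libraries, the block for the culture and the omission of each library. On simulated counts for t1 against SS (8551 genes, 200 changed) edgeR recovered 66% of 2-fold and 96% of 4-fold changes, and 5.26% of its calls were on unchanged genes. Genes with very few counts at SS were not among those changed. Every group was given the same spread, although the real t1 cultures differed more than the SS cultures. The rates therefore do not hold for genes with few counts and can be too high for this comparison. Python 3.11.15, pandas 2.3.3, numpy 2.4.6 and matplotlib 3.10.9 were used.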

Additional observations from a re-analysis of the deposited data

Results flagged for a closer look

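The strains differed in their response over the first 0.5 h by the test of the difference itself. This held for 1096 genes (12.8%) in *Δclr2*, 2343 (27.4%) in *Δclr1* and 7 (0.0817%) in *Δclr4*, the last a count that was not stable. The SS and t1 libraries held 10489642 to 16755931 counts in *Δclr1* and 2788846 to 5904078 in *Δclr2*. Because depth differed, the numbers of genes that passed are not directly comparable between strains. All values below are log2 differences of the t1 against SS change, deletion strain minus parental strain, each with an adjusted p under 0.05 by edgeR, and no explanation was weighed.

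Among enzymes and transporters, the cellobiohydrolase MYCTH_109566 differed by -6.40 in *Δclr1* and -2.79 in *Δclr2*. The transporter MYCTH_114107 differed by -2.56 in *Δclr1*, and the transporter MYCTH_2308157, which fell in the parental strain, by -1.26 (-0.99 to -1.18, and not called, without parental SS culture 2, parental t1 culture 1, *Δclr1* SS culture 2 or *Δclr1* t1 culture 1). The GH31 gene MYCTH_2300079 lost less in *Δclr1* (1.51), and the trehalase MYCTH_75490 lost less in *Δclr1* (1.96) and *Δclr2* (1.69).

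Among regulators, *clr2* (MYCTH_38704) differed by -4.15 in *Δclr1* and *xyr1* (MYCTH_2310145) by -2.76. The value for *hacA* (MYCTH_2310995) was -3.20 in *Δclr1* and -2.06 in *Δclr2*, for *cre1* (MYCTH_2310085) -1.17 and -1.13, and for *gaaX* (MYCTH_46981) -1.40 and -1.13. In *Δclr1* alone *gaaR* (MYCTH_46266) passed with -0.79 and *amyR* (MYCTH_2301920) with 0.57. The *Δclr2* value of *gaaX* was not called without parental SS culture 1, parental t1 culture 2 or culture 2 of *Δclr2* at SS or t1 (-0.55 to -1.09), and that of *amyR* without culture 2 of the parental strain at SS or t1, *Δclr1* SS culture 1 or either *Δclr1* t1 culture (0.41 to 0.58).

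Among the genes with the largest gains and losses of CPM, the ER gene MYCTH_2315513 differed by -4.94 in *Δclr1* and -2.92 in *Δclr2*. MYCTH_2298860 differed by -5.54 and -1.0, and MYCTH_115501 (transferase activity) by 2.8 and 1.97. MYCTH_2315548 (-1.58) and MYCTH_2297659 (0.87) passed in *Δclr1*. Of these, the *Δclr2* values of MYCTH_2298860 (-0.88 to -1.12) and MYCTH_115501 (1.38 to 2.04) were not called without most single libraries, the exceptions being parental SS culture 1 for the former and parental t1 culture 1 and *Δclr2* t1 culture 2 for the latter, nor was MYCTH_2297659 in *Δclr1* without parental SS or t1 culture 2, *Δclr1* SS culture 1 or *Δclr1* t1 culture 2 (0.62 to 0.78).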

How the results depend on the processing

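The 2869 calls at t1 were 2994 with DESeq2 (1557 higher, 1437 lower), 3232 with the replicate block and 1312 where at least a 2-fold change was also required. With DESeq2, its size factors and the block, the *Δclr4* difference of 7 genes (7 higher, 0 lower) became 54 (35 and 19), 14 and 49, the *Δclr2* difference was 1433 and the *Δclr1* difference 2737 with the block. The block ended no call of a named gene and added 1, MYCTH_113450 (2.16). Leaving out 1 library gave 2102 to 2409 calls for t1 against SS, 1646 to 2390 for the *Δclr1* difference, 446 to 1399 for *Δclr2* (446 without parental t1 culture 1, 451 without *Δclr2* t1 culture 2, 541 without *Δclr2* SS culture 1, 682 without parental SS culture 2), 1 to 52 for *Δclr4* (1 without parental SS culture 1, 52 and 42 without parental t1 culture 1 and 2, 18 and 4 without *Δclr4* t1 culture 1 and 2) and 758 to 1335 for t2 against t1 (758 without parental t1 culture 1, 794 and 905 without parental t2 culture 2 and 1). A lone library is then assumed to vary like the other groups. Without the 10 highest genes in the total, the mean shares were 0.21% for hemicellulases at SS, 0.352% and 0.169% for starch metabolism and 1.33% and 0.91% for cell wall remodelling at SS and t1. Of 103 named genes 94 were called at t1, and none of the 94 changed sign under any alternative. Over the 7 alternatives that kept the 4 libraries 9 of them lost the call at least once, and over the 4 that left out 1 library 12 did. The 4 genes that changed sign were not called, with -0.00 to 0.25 for *clr4* (MYCTH_2296492), -0.08 to 0.16 for MYCTH_2316610, -0.30 to 0.15 for MYCTH_43356 and -0.09 to 0.32 for MYCTH_2299923. At this depth genes with a few counts at SS bear wide intervals.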

Other observations

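Several of the largest movements were in genes without a role in the annotation used here. MYCTH_2298860 (chromosome 1, 8692011 to 8694674) rose from 221 and 187 CPM at SS to 5899 and 6557 at t1 (4.93 ± 0.26, adjusted p = 3.8e-16 by edgeR) and stood at a mean of 18828 CPM at t2. It is the gene listed just before *clr1* (MYCTH_2298863, 8699924 to 8702395) on that chromosome, which itself did not pass the test at t1. In *Δclr1* MYCTH_2298860 was at a mean of 301 CPM at SS and 198 at t1. MYCTH_2315548 was already high at SS, at 3354 and 3055 CPM, and rose to 8800 and 9946 before it fell by 1.19 on the log2 scale at t2. On the other side, MYCTH_2311234 fell from 90.4 and 110 CPM to 3.30 and 3.34 (-4.91), and MYCTH_2293942 from 444 and 418 to 26.4 and 15.3 (-4.38).

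Of 47 tested genes with no count at SS, 4 were called higher at t1. Besides MYCTH_2066457 and MYCTH_88807 these were MYCTH_2122561 at 1.80 and 3.62 CPM and MYCTH_2309513 at 1.80 and 1.11 CPM, at least 8.37-fold and 4.5-fold higher with the floor of 3 counts over the SS group. MYCTH_2309513 was not called without any 1 of the 4 libraries, nor MYCTH_2122561 without SS culture 1, SS culture 2 or t1 culture 2 (fitted values 6.28 to 7.56 on the log2 scale).

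Examples of smaller groups outside the lists above are given here, picked from many such groups. The 3 genes of sodium:proton antiporter activity were all higher (median 0.51), and 3 of 4 genes of G-protein coupled receptor signalling were lower (median -0.70). Over all tested genes 15.5% were higher and 18% lower. The study listed the former group for genes higher and the latter for genes lower in *Δclr1* after the same spike, so their direction has no independent weight.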
